A study of Mus musculus with 10 samples.

Results

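Cytosolic ribosomal proteins are the protein part of the ribosomes that translate nuclear mRNAs, and their genes were described here as 1 group in the RNA of microglia, the resident macrophages of the brain. The group holds the protein-coding genes whose RefSeq symbol is Rpl or Rps followed by a number and at most 1 letter, with Rplp0, Rplp1, Rplp2 and Rpsa. Of 46152 genes counted, 84 had such a symbol, and 3 of these, Rps4l, Rpl6l and Rpl32p, were set aside because RefSeq does not class them as protein-coding. The other 81 genes, 50 of the large and 31 of the small subunit, lie on 19 chromosomes. A count was present in at least 1 library for 79 of them, and 76, 48 of the large and 28 of the small subunit, had over 1 CPM (fragments scaled to a common library size) in 3 or more libraries and were tested.

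The microglia came from brains of C57BL/6J mice aged 8 to 12 weeks that were gavaged daily for 8 days. The Vehicle group received 0.1% Tween 80 with 0.5% Hydroxymethyl Propyl-cellulose alone, and the GW2580 group received 80 mg/kg/d of GW2580, an inhibitor of the kinase of CSF1R, the receptor on which microglia depend for growth signals. Cells were enriched on a Percoll gradient and by magnetic selection for CD11b, a surface protein that monocytes and granulocytes also carry, and cDNA was made with a SMART-Seq v4 kit. Each group had 2 male and 3 female mice with 1 library per mouse, so the spread given is that between mice. Libraries are named by group and replicate number.

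A ribosome holds 1 copy of nearly every one of these proteins, and cells make them in step with each other and with ribosomal RNA. Their mRNAs are short and abundant, and most begin with a C followed by a run of pyrimidines, the 5′ terminal oligopyrimidine (TOP) tract, through which LARP1 and the mTORC1 kinase set how strongly the mRNA is translated. Growth factor receptors such as CSF1R feed into mTORC1, and that control acts mainly on translation, which RNA counts do not measure.

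Start regions with and without such a tract were both found among the members. RefSeq (GRCm38.p6) gave the region around the annotated start for 61 of the 81 members. A tract, read in the mRNA sense, was a C followed by at least 4 bases of C or T, beginning within 5 bases of the start. It was present in 29 of these 61 genes (47.5%) against 21.2% of all 27025 genes with a start region. Each sequence below runs 5′ to 3′ from 20 bases before the annotated start to 10 bases after it. Capitals mark the pyrimidine tract as far as it lies in these 30 bases, and the first 5 members are shown because they hold one. Rps6 lies on the minus strand at chr4:86857358-86857387, Rpl15 on the minus strand at chr14:18270977-18271006, Rplp2 on the plus strand at chr7:141447631-141447660, Rps27 on the minus strand at chr3:90213639-90213668 and Rps15a on the minus strand at chr7:118116138-118116167.
Rps6: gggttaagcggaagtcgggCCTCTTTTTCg
Rpl15: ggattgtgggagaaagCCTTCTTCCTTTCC
Rplp2: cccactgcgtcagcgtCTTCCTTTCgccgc
Rps27: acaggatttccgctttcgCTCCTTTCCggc
Rps15a: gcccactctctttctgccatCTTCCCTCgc
The next 3 are shown because these letters are not within 5 bases of their annotated start. Rpl4 lies on the plus strand at chr9:64173367-64173396, Rplp0 on the plus strand at chr5:115559447-115559476 and Rpsa on the plus strand at chr9:120127746-120127775.
Rpl4: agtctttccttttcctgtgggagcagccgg
Rplp0: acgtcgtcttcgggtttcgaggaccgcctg
Rpsa: tggctgtgggttatttaaggacgtcatttc
In Rpl4 a run of C and T lies upstream of the annotated start, so a match here depends on where the annotation puts that start.

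Counts of fragments assigned to genes ran from 12550418 to 26079343 per library, and CPM was computed with trimmed-mean (TMM) factors of 0.691 to 1.61. The 10 microglial marker genes summed to between 12089.5 and 27565 CPM in the Vehicle libraries and between 17038 and 56236 with GW2580, with Aif1 at 0 counts in all libraries. The lowest of these sums was that of Vehicle 5, against 21588 to 27565 CPM in Vehicle 1 to 4. Markers of other cells were uneven. Erythroid markers summed to 2004 CPM in Vehicle 5 against 47.5 to 120 in Vehicle 1 to 4. Those of the ependyma and choroid plexus summed to 25899 CPM in Vehicle 5 against 1207 to 2963 in Vehicle 1 to 4, those of monocytes and granulocytes to 12929.5 in Vehicle 1, and those of oligodendrocytes to 17691 in Vehicle 2. Fragments outside annotated exons were 38.4 to 49.1% of records with vehicle and 38.7 to 60.1% with GW2580, with the highest values in GW2580 1 (56.1%) and GW2580 4 (60.1%). In such bulk samples fewer cells of a type and less RNA per cell cannot be told apart.

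Most of the ribosomal protein genes moved together between libraries, and in their summed share 2 libraries stood on the side of the other group. In Vehicle 1 to 5 the members took 0.965, 0.845, 0.843, 0.756 and 0.353% of assigned fragments. In GW2580 1 to 5 they took 0.235, 0.466, 0.290, 0.201 and 1.44%. GW2580 1 to 4 were thus below Vehicle 1 to 4, while GW2580 5 was the highest of the 10 libraries and Vehicle 5 lay among the treated ones. The group values were 0.753 ± 0.236% (SD, n = 5) for Vehicle and 0.526 ± 0.521% (SD, n = 5) for GW2580, a difference smaller than the spread in the treated group. Among male mice, the vehicle libraries (1 and 2) were at 0.965 and 0.845% and the treated ones at 0.235 and 0.466%. Among female mice both libraries that stood apart were present, and the groups overlapped.

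**Figure D1:**
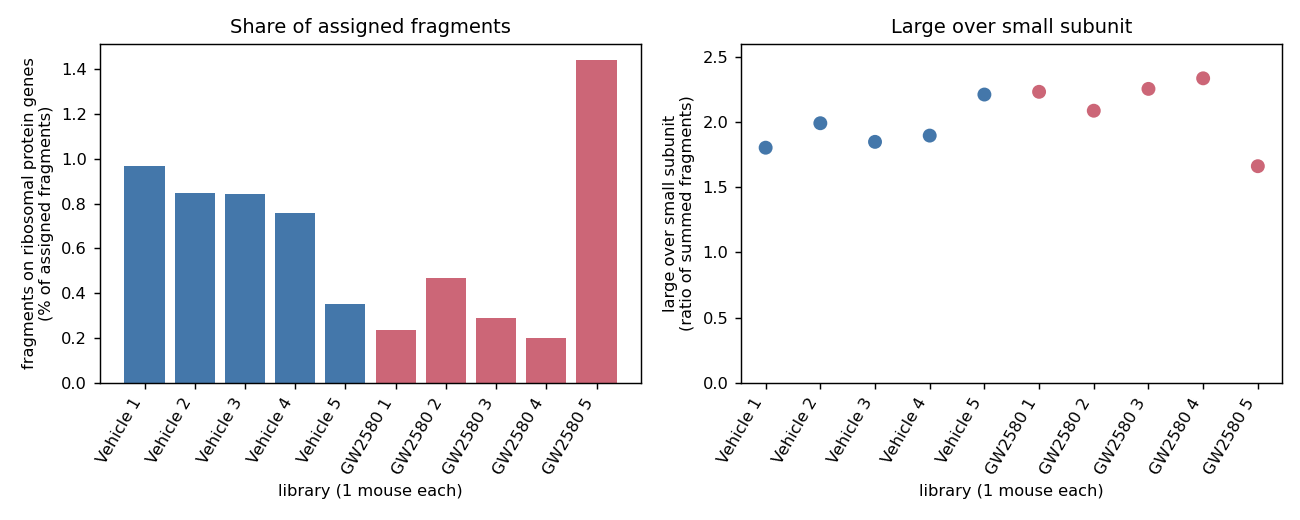
Share of assigned fragments on the 81 ribosomal protein genes in each library (left, bars, percent, axis from 0) and the ratio of fragments on large to small subunit genes (right, points), with Vehicle in blue and GW2580 in red. The share is highest in GW2580 5 (1.44%) and lowest in GW2580 4 (0.201%), and the ratio is lowest in GW2580 5 (1.66) and highest in GW2580 4 (2.34).

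Over all 10 libraries, 6 of the 76 members tested were called lower with GW2580, meaning that the level fell more than 2-fold with an unadjusted p under 0.05 (7.89%, against 6.7% of all genes tested), and 0 were called higher (4.01% of all genes). The share called lower was thus near that of all genes. Other protein-coding genes under 750 coding bases, a range that holds most members, were called lower more often, at 15.8 to 20.4% by length class. At an unadjusted p under 0.05 and any fold change there were 7 members, against 14.7% of all genes. With p-values adjusted by Benjamini-Hochberg over every gene tested, 0 members were under 0.05 in edgeR's quasi-likelihood test and 0 in DESeq2. The number called moved with the method, to 11 by DESeq2 (7.27% of all genes), 25 by limma-voom (5.66% of all genes), 1 without TMM factors (3.08% of all genes) and 0 with the percentage on no exon as a covariate (1.67% of all genes). The log2 fold changes of the members ran from -1.19 to 0.46 with a median of -0.64, against -0.03 over all genes tested, and 72 of 76 were below 0.

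Rps6, the small subunit protein that S6 kinase phosphorylates downstream of mTORC1, had the smallest p of the members. It was the 1 of 76 members in which all treated libraries lay below all vehicle libraries, a share near that of all genes (0.985%). Its levels with vehicle were 127, 178, 121, 97.9 and 101 CPM in replicates 1 to 5. With GW2580 they were 37.1, 80.9, 74.5, 22.2 and 84.9 CPM. The log2 fold change was -1.06 ± 0.39 (SE; unadjusted p = 0.0171, adjusted p = 0.280 by edgeR). A two-sided exact permutation test, not adjusted over genes, gave p = 0.00794, the smallest that 5 against 5 libraries can give.

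The other members called lower overlapped between groups. Rpl15, a large subunit protein, was at 112, 118, 111, 102 and 61.4 CPM in the Vehicle libraries and at 22.9, 59.2, 44.5, 17.0 and 90.2 CPM in the GW2580 libraries (log2 fold change -1.11 ± 0.43, SE; edgeR adjusted p = 0.283). Vehicle 5 was the low vehicle library and GW2580 5 the high treated one, in the range of the other group. Rpl29 of the large subunit was at 87.0, 109, 86.3, 82.4 and 49.5 CPM in the Vehicle libraries and 14.5, 39.9, 32.4, 11.8 and 85.3 CPM in the GW2580 libraries (-1.17 ± 0.49, SE; edgeR adjusted p = 0.302). Rps3, a small subunit protein at the mRNA entry channel, was nearly level in Vehicle 1 to 4 at 307, 306, 313 and 311 CPM and was 130 CPM in Vehicle 5. Its treated libraries were at 70.9, 185, 152, 40.5 and 202 CPM (-1.07 ± 0.45, SE; edgeR adjusted p = 0.306), all below Vehicle 1 to 4 but not below Vehicle 5. Rpl8, a large subunit protein near the catalytic centre, was at 143, 173, 163, 169 and 97.0 CPM in the Vehicle libraries and 32.7, 109, 87.5, 20.6 and 118 CPM in the GW2580 libraries (-1.02 ± 0.45, SE; edgeR adjusted p = 0.323). Rpl14 of the large subunit was the sixth call (-1.14 ± 0.51, SE; edgeR adjusted p = 0.326). Rpl9 passed the p threshold alone, with a log2 fold change of -0.96. Rpl14 and Rpl9 are named after their values were seen.

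**Figure D2:**
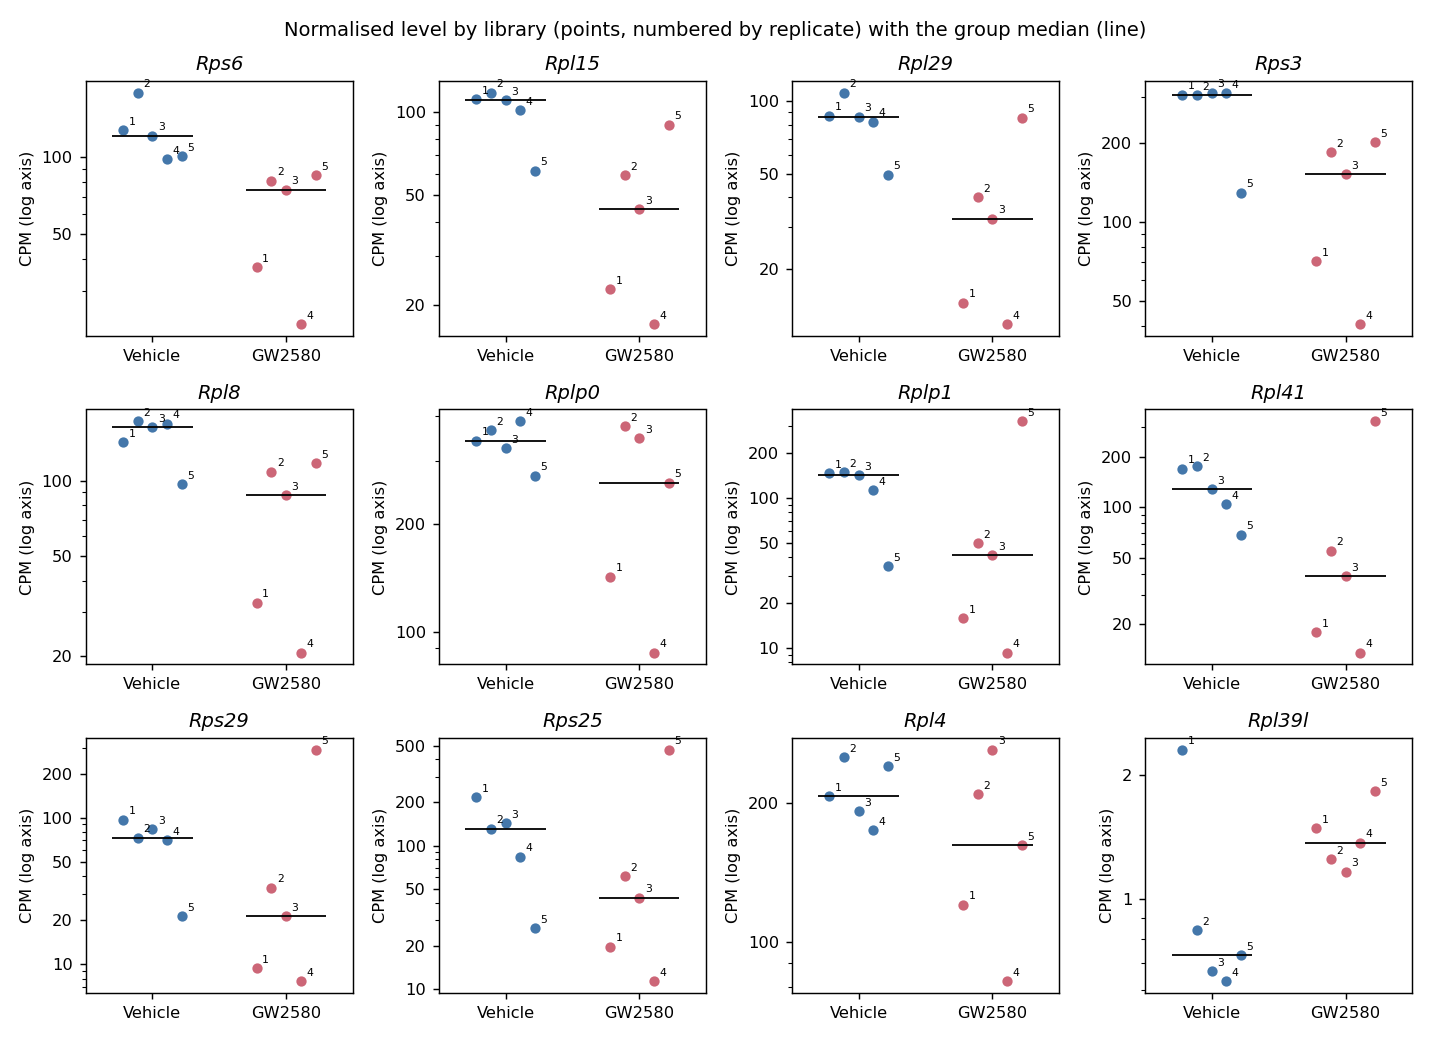
CPM of 12 members in each library (points, numbered by replicate, log axes that do not start at 0), with a line at each group median. Rps6 is the 1 panel in which the groups do not overlap; in Rplp1, Rpl41, Rps29 and Rps25 the treated library 5 is the highest of all, while in Rpl4 and Rplp0 it lies among the others.

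The treated library 5 stood apart for most members. It was above every other library in 47 of 76 members (10.2% of all genes), GW2580 4 was below every other library in 72 (16% of all genes), and Vehicle 5 was the lowest vehicle library in 71 (40.4% of all genes). GW2580 1 to 4 all lay below Vehicle 1 to 4 in 70 members, against 12% of all genes. These libraries were compared in this way because the values had shown them apart, so the counts describe the libraries and are no test of the treatment. Without GW2580 5, 64 members were called lower (13.2% of all genes) with a median log2 fold change of -1.83, and 0 had an adjusted p under 0.05. Without Vehicle 5 alone, 14 were called lower (6.74% of all genes). Without both libraries, 67 were called lower (15.2% of all genes), 64 of the members had an edgeR adjusted p under 0.05 (17.8% of all genes), and the median was -2.02. Leaving out the libraries that lie with the other group widens a difference by its own construction. GW2580 5 had 51.5% of records on no exon. The monocyte and granulocyte markers summed to 12929.5, 2590, 1285, 942 and 184 CPM in Vehicle 1 to 5, the same order as the member share. In GW2580 1 to 5 they summed to 788, 2906, 161, 172 and 3613.5 CPM. Libraries 5 and 2 were the highest there for both, and the order of the others differed. The ependymal and choroid plexus markers summed to 281, 1235, 728, 156 and 3531 CPM in GW2580 1 to 5, the same order as the share of fragments on members, while in Vehicle 5 their sum was the highest and the member share the lowest of its group. Of these markers 5 of the 6 tested were called lower with GW2580, and of the oligodendrocyte markers 4 of the 6 tested (6.7% of all genes). The oligodendrocyte sums were 264, 17691, 96.2, 180 and 3881 CPM in Vehicle 1 to 5, highest in libraries 2 and 5. In GW2580 1 to 5 they were 496, 458, 332, 1689 and 127 CPM. Also called lower were 1 of 7 astrocyte, 2 of 8 neuron and 1 of 6 monocyte and granulocyte markers tested. Of the microglial, endothelial and erythroid markers 0 were called lower. The part of these markers and of the records on no exon in the members' levels was not tested.

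**Figure D3:**
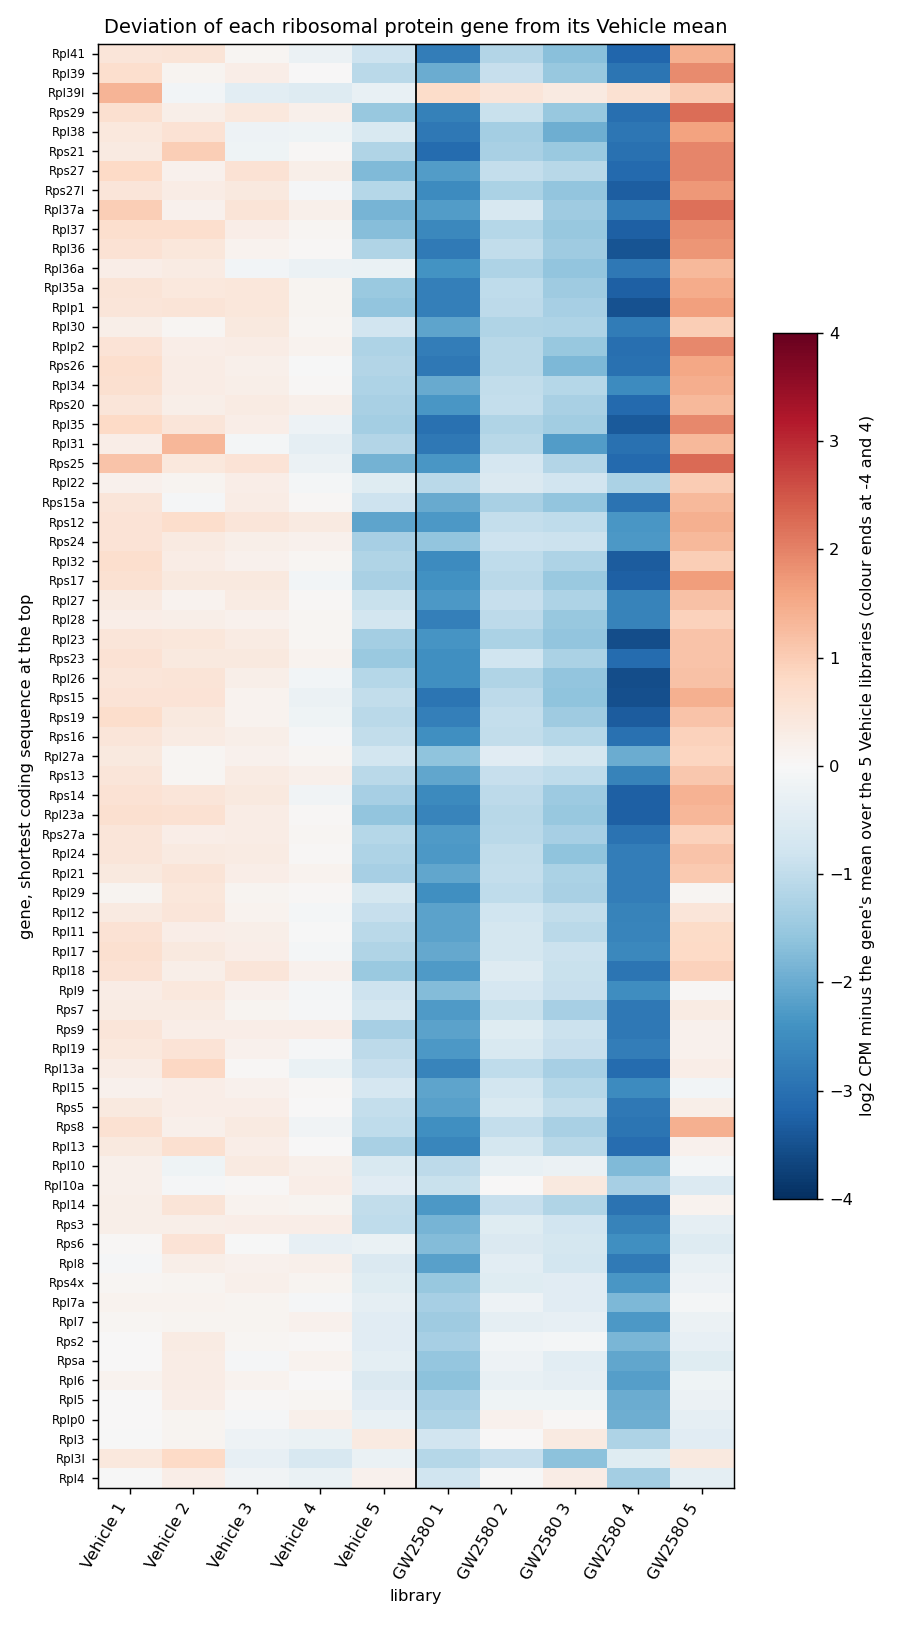
Log2 CPM of each of 74 of the members tested minus its mean over the 5 Vehicle libraries, with libraries in columns (Vehicle left of the line) and genes in rows from the shortest coding sequence at the top. GW2580 1 and 4 are blue for nearly every gene, and GW2580 5 is red for short genes at the top and near 0 or blue for long ones at the bottom.

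In the most abundant members of each subunit the treated libraries 1 to 4 were below Vehicle 1 to 4, and library 5 varied by gene. Per kilobase of exon, high large subunit members were Rpl13 (451 CPM per kb), Rpl41 (245), Rpl10 (237) and Rplp1 (219), and high small subunit members were Rps14 (216), Rps9 (200), Rps29 (181) and Rps25 (176). Rpl13 was at 581, 695, 527, 443 and 179 CPM in the Vehicle libraries and 72.4, 269, 204, 53.5 and 496 CPM in the GW2580 libraries. GW2580 5 lay within the range of the vehicle libraries for this gene. Rps14 was at 207, 195, 181, 127 and 55.2 CPM in the Vehicle libraries and 23.7, 67.2, 50.6, 14.3 and 365 CPM in the GW2580 libraries, and here the treated library 5 was the highest. Rps14 and Rps9 of the small subunit had log2 fold changes of -0.55 ± 0.73 and -0.98 ± 0.53 (SE). Rpl10, which completes the large subunit late in its assembly, varied least of these, with a ratio of 4.39 between its highest and lowest library.

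Rpl41, a peptide of the large subunit, has the shortest coding sequence of the group at 75 bases. It was at 170, 176, 128, 105 and 68.6 CPM in the Vehicle libraries and 17.9, 54.8, 38.6, 13.5 and 327 CPM in the GW2580 libraries, a ratio of 24.2 between its highest and lowest library. Rps29, a zinc-binding protein of the small subunit with the shortest exon length of the members tested, was at 96.6, 73.0, 83.1, 70.3 and 21.3 CPM in the Vehicle libraries and 9.40, 33.4, 21.3, 7.67 and 291 CPM in the GW2580 libraries. Rps25, a small subunit protein used by several viral internal ribosome entry sites, was at 217, 131, 143, 83.8 and 26.4 CPM in the Vehicle libraries and 19.7, 61.1, 43.2, 11.3 and 469 CPM in the GW2580 libraries. For both small subunit genes 4 treated libraries were below Vehicle 1 to 4 and 1 was above all. Their log2 fold changes, 0.08 ± 0.84 and 0.01 ± 0.85 (SE), were therefore near 0 with wide errors, and without both libraries that stood apart they were -2.26 ± 0.42 and -2.19 ± 0.48.

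The stalk of the large subunit, which recruits the translation elongation factors, is built on Rplp0 with Rplp1 and Rplp2 attached, and its parts varied by different amounts. Rplp0, the longer base protein, was at 342, 366, 326, 388 and 273 CPM in the Vehicle libraries and 142, 375, 347, 87.2 and 261 CPM in the GW2580 libraries. GW2580 2 and 3 lay within the vehicle range, and the log2 fold change was -0.48 ± 0.40 (SE; edgeR adjusted p = 0.580). Rplp1 was at 145, 149, 142, 112 and 34.8 CPM in the Vehicle libraries and 15.7, 49.6, 41.5, 9.23 and 325 CPM in the GW2580 libraries. Rplp2 was at 139, 115, 117, 106 and 40.8 CPM in the Vehicle libraries and 14.2, 44.0, 33.4, 11.8 and 360 CPM in the GW2580 libraries. The highest library exceeded the lowest by a ratio of 4.45 for Rplp0, 35.2 for Rplp1 and 30.4 for Rplp2. The coding lengths are 951, 342 and 345 bases.

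Rpsa, a small subunit protein also known as the laminin receptor precursor, was at 150, 180, 145, 162 and 113 CPM in the Vehicle libraries and 50.8, 130, 111, 35.5 and 106 CPM in the GW2580 libraries. Its log2 fold change was -0.80 ± 0.38 (SE, unadjusted p = 0.0540, adjusted p = 0.343 by edgeR). A two-sided exact permutation test, not adjusted over genes, gave p = 0.0159. Rpl5 and Rpl11, which form a particle with 5S ribosomal RNA and bind the p53 regulator Mdm2 when it is free, differed in spread. Rpl5 was at 96.7, 115, 99.3, 101 and 70.0 CPM in the Vehicle libraries and 38.2, 84.1, 84.8, 24.2 and 80.2 CPM in the GW2580 libraries. Rpl11 was at 121, 98.9, 96.5, 80.5 and 38.4 CPM in the Vehicle libraries and 18.6, 50.01, 38.9, 13.1 and 140 CPM in the GW2580 libraries. Library 5 of the treated group was thus below 4 of the vehicle libraries for Rpl5 and above all of them for Rpl11. Rps27a, which is made as a fusion with ubiquitin, had mean levels of 90.5 ± 31.2 CPM (SD, n = 5) in the Vehicle libraries and 52.5 ± 61.0 CPM (SD, n = 5) in the GW2580 libraries, with GW2580 5 again the highest library at 160 CPM.

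Several members have a paralog with a more restricted known use, and the 3 of these that were tested lay below their partner genes per kilobase of exon. Rpl3l, the striated muscle form of Rpl3, was at 0.779 CPM per kb against 92.2 for Rpl3. Rpl39l, the testis form of Rpl39, was at 1.43 CPM per kb against 24.7 for Rpl39. Rps27l, a p53 target related to Rps27, was at 17.2 CPM per kb against 119 for Rps27. Before division by length the gap was much smaller, with means of 47.4 CPM for Rps27l, which was thus well measured, and 68.7 CPM for Rps27. The exon length is 2748 bases for Rps27l and 575 bases for Rps27, while their coding lengths are equal. The gap per kilobase in this pair therefore came in large part from exon length. Rpl10l, the testis form of Rpl10, had 43 counts over all libraries and was below the filter. Near-identical sequences can share reads between paralogs, and only uniquely aligned fragments were counted.

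Rpl39l was the member least like the others, with a Pearson correlation of -0.06 with the mean of the other members over the 10 libraries. It had 201 counts in all, 8 to 32 per library, a level at which counting error is large. Its levels were 2.31, 0.840, 0.668, 0.632 and 0.730 CPM in the Vehicle libraries and 1.49, 1.25, 1.17, 1.37 and 1.83 CPM in the GW2580 libraries. Vehicle 1 was above all treated libraries and Vehicle 2 to 5 below all of them, and the log2 fold change was 0.46 ± 0.45 (SE; edgeR adjusted p = 0.643). Rpl3, which helps shape the catalytic centre, and Rpl4, which lines the exit tunnel, came next with correlations of 0.49 and 0.60. Rpl3 was at 155, 168, 135, 131 and 201 CPM in the Vehicle libraries and 92.5, 157, 199, 65.9 and 115 CPM in the GW2580 libraries. Rpl4 was at 207, 251, 192, 175 and 240 CPM in the Vehicle libraries and 120, 209, 261, 82.3 and 162 CPM in the GW2580 libraries. In both genes Vehicle 5 and GW2580 3 were among the highest 3 libraries. Rps16, Rpl32 and Rpl11 were most like the mean of the others (0.999, 0.998 and 0.998), and 64 of the 76 members had a correlation over 0.9. The points of each correlation are the same 10 libraries with shared scaling. No share over all genes is set beside this count, so it does not show a trait particular to the members.

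Length separated the members that varied little from those that varied much. The coding length, that of the principal transcript in GENCODE M21, ran from 75 bases in Rpl41 to 1257 bases in Rpl4, and the ratio between the highest and lowest library fell with it (Spearman rho = -0.76 over 76 members). Members under 300 coding bases had a median ratio of 32.4 (10 genes), those of 300 to 450 bases 19.8 (27 genes), those of 450 to 600 bases 13.5 (17 genes), those of 600 to 750 bases 8.73 (10 genes), and those of 750 bases or more 4.90 (12 genes). The order was unbroken over these 5 classes. In GW2580 5 the median member stood at 2.78 times the mean of Vehicle 1 to 4 in the shortest class and at 0.781 times in the longest. In GW2580 1 to 4 it stood at 0.219 and 0.524 times, and in Vehicle 5 at 0.355 and 0.696 times. Short members were thus further from Vehicle 1 to 4 in both directions. Relative to the vehicle mean, members of 600 coding bases or more were at -0.22 log2 units in GW2580 5 while those under 300 bases were at 1.87, and in GW2580 4 they were at -2.25 and -2.94.

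**Figure D4:**
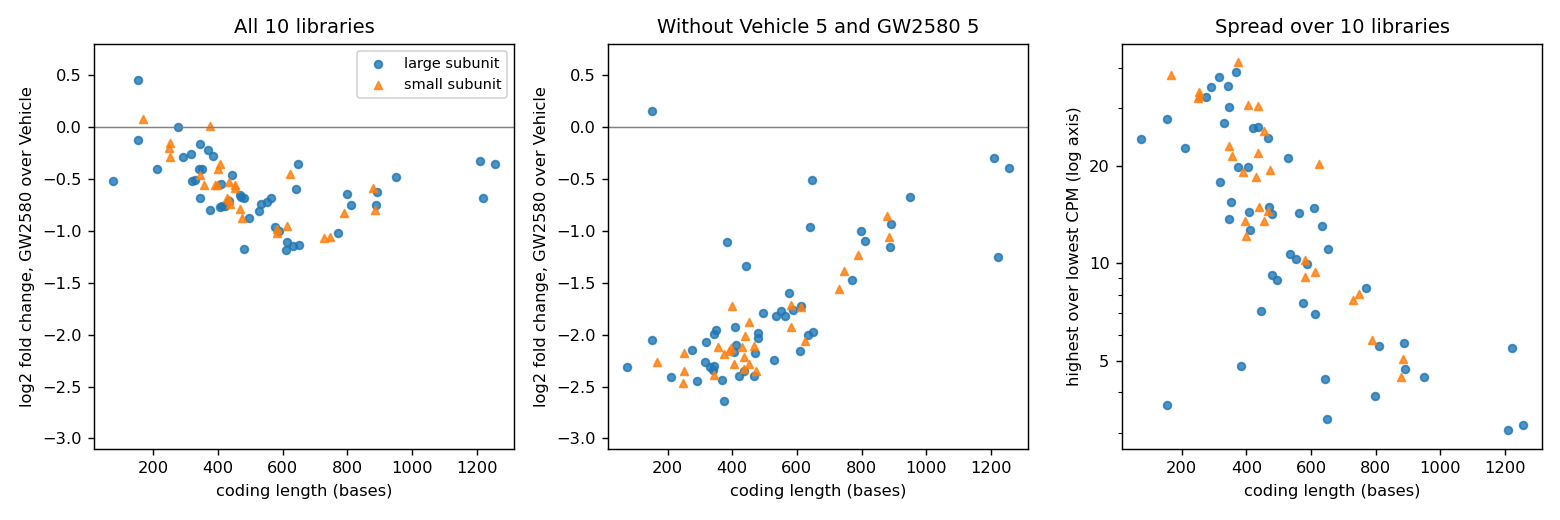
Log2 fold change of GW2580 over Vehicle against coding length for the 76 members, over all 10 libraries (left) and without Vehicle 5 and GW2580 5 (middle), and the ratio of the highest to the lowest library on a log axis (right); circles are large and triangles small subunit genes. The left panel falls from the short members to about 600 to 750 bases, the middle panel rises with length, and the right panel falls.

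The relation of the fold change to length turned with 1 library in the members, and not in the other protein-coding genes. Against the exon length deposited with the counts, the Spearman rho over the 76 members was -0.33 with all libraries, 0.53 without GW2580 5 and 0.54 without both libraries that stood apart. Against coding length it was -0.59, 0.69 and 0.69. Over other protein-coding genes rho against coding length was 0.24 with all libraries (17220 genes). It was 0.26 without GW2580 5 (16986 genes) and 0.33 without both libraries (16857 genes). The deposited length of Rpl10a, Rps10, Rps18 and Rps28 adds up copies on alternate scaffolds, and with the length on the chromosome alone rho was -0.35. Rps15a, the longest member by exon length (5136 bases), has a coding length of 390 bases and varied like a short gene, with a ratio of 19.1 between its highest and lowest library. Other short protein-coding genes also had a median log2 fold change below 0. It was -0.69 under 300 coding bases (330 genes, 18.5% of them called lower) against -0.18 for the 10 members of that length, of which 0 were called. At 300 to 450 bases it was -0.64 (773 genes, 19.7% called lower) against -0.53 for 27 members, of which 0 were called. At 450 to 600 bases it was -0.55 (1026 genes, 20.4% called lower) against -0.79 for 17 members, of which 1 was called. Genes of 600 to 750 coding bases had a median of -0.38 (1281 genes, 15.8% called lower) against -1.07 for the 10 members, of which 4 were called, and those of 750 bases or more had -0.01 (13810 genes) against -0.66 for 12 members. Without both libraries the shortest class stood at -1.56 for other genes (315 genes) and -2.29 for members, and the longest at 0.10 (13572 genes) and -1.03.

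The subunits differed little. The median log2 fold change was -0.67 over 48 large and -0.57 over 28 small subunit genes, and the difference of -0.09 became 0.10 without GW2580 5 and 0.14 without both libraries. Fragments on large subunit genes exceeded those on small subunit genes by a ratio of 1.80, 1.99, 1.85, 1.90 and 2.21 in Vehicle 1 to 5 and of 2.23, 2.09, 2.26, 2.34 and 1.66 in GW2580 1 to 5. The libraries with few ribosomal protein fragments had the higher ratios, and GW2580 5 had the lowest. The subunits also differ in length, with a median coding length of 475.5 bases for large and 436.5 bases for small subunit genes, and the part of length in the ratio was not tested. Called lower were 4 of 48 large (8.33%) and 2 of 28 small subunit members (7.14%), both near the 6.7% of all genes. For sex by treatment, edgeR gave 0 members an adjusted p under 0.05, and 1 member, Rps21 of the small subunit, had an unadjusted p under 0.05 (2.52% of all genes did). Rps21 is named after its value was seen.

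The members with and without a pyrimidine tract at the annotated start had medians that lay close together. Among the tested members with a start region, 26 with a tract had a median log2 fold change of -0.57 and 30 without one had -0.61. Without both libraries that stood apart the medians were -2.08 and -1.90, and the median ratio of highest to lowest library was 15.1 and 11.9. Median coding lengths were 405 and 462 bases, and the groups were not tested against each other.

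Genes that act with these proteins did not all follow them. Of 8 ribosomal genes outside the symbol rule, 0 were called, with a median log2 fold change of -0.55, and without both libraries 6 of 8 were called lower, against 15.2% of all genes, with a median of -1.64. Among them Fau, a small subunit protein fused to a ubiquitin-like protein, was at 133 ± 53.4 CPM (SD, n = 5) in the Vehicle libraries and 93.1 ± 123 CPM (SD, n = 5) in the GW2580 libraries. Rack1, a scaffold protein of the small subunit, was at 10.97 ± 1.89 and 8.04 ± 2.18 CPM. Of 36 translation factors tested, 5 were called lower, against 6.7% of all genes, and 0 higher, with a median of -0.32. Eif1, which guards start codon choice, was at 1022 ± 113 CPM in the Vehicle libraries and 628 ± 247 CPM in the GW2580 libraries (log2 fold change -0.70 ± 0.38, SE; edgeR adjusted p = 0.393), and Eif5 at 522 ± 94.4 and 495 ± 179 CPM. Of 33 ribosome biogenesis genes 1 was called lower, against the same 6.7%, with a median of 0.03, and Ncl and Nop56, nucleolar proteins that act in ribosomal RNA processing, had log2 fold changes of -0.06 ± 0.34 and -0.02 ± 0.34 (SE). Of 15 mTORC1 pathway genes 1 was called lower, again against 6.7%, with a median of 0.18, and Larp1, the binder of the TOP tract, had a log2 fold change of 0.25 ± 0.39 (SE).

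The mitochondrial ribosome, oxidative phosphorylation and the proteasome, other complexes of many small proteins, were set beside the members. Of 75 mitochondrial ribosomal protein genes tested 26 were called lower, of 81 oxidative phosphorylation genes 17 and of 35 proteasome genes 8, each with 0 called higher and against 6.7% of all genes. Their median log2 fold changes were -0.84, -0.9997 and -0.52. In GW2580 5 the families parted. Relative to the vehicle mean, the median cytosolic ribosomal protein gene was at 0.99 log2 units in that library, oxidative phosphorylation at 0.65, mitochondrial ribosomal proteins at -0.26 and the proteasome at -0.44. In GW2580 4 they stood at -2.83, -3.12, -2.14 and -1.65. In Vehicle 5 the cytosolic ribosomal proteins stood at -1.06, against -0.47 for the mitochondrial ones, -0.22 for oxidative phosphorylation and -0.03 for the proteasome. These medians are values of single libraries, and the differences between families were not tested.

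**Figure D5:**
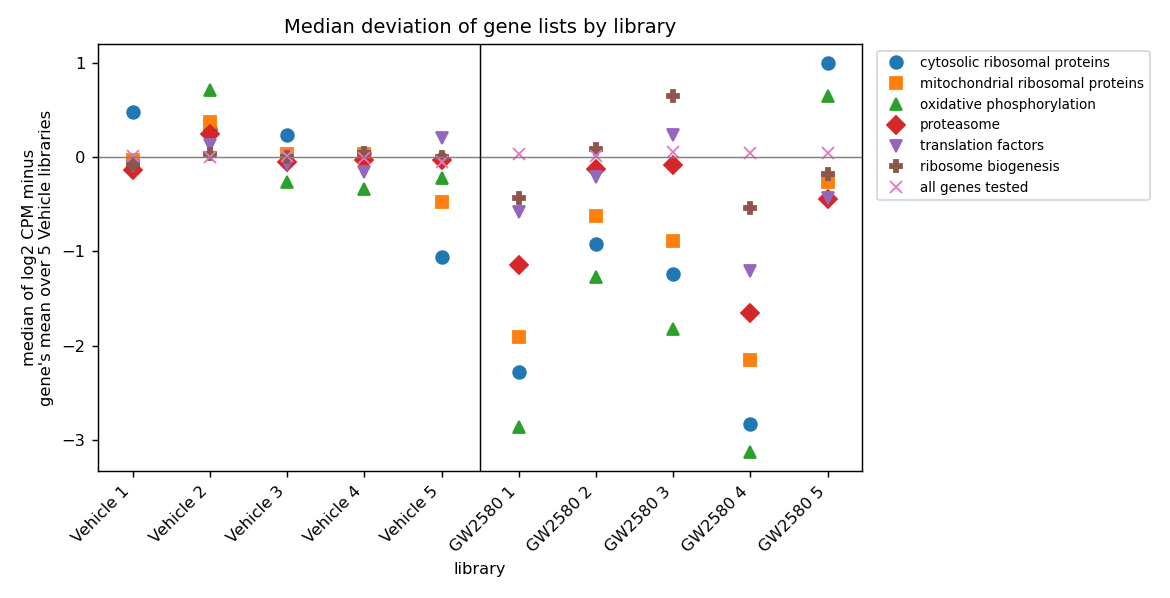
Median over the genes of each list of log2 CPM minus the gene's mean over the 5 Vehicle libraries (vertical axis, log2 units), for each library (horizontal axis, Vehicle left of the line), with all genes tested as crosses. All genes tested stay near 0 in every library, while cytosolic ribosomal proteins run from -2.83 in GW2580 4 to 0.99 in GW2580 5.

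Members with no or few counts were not spread evenly over the annotation. Rps10 and Rps18, both of the small subunit, had 0 counts in all 10 libraries, and Rps28, another small subunit gene, had 4 counts in all. RefSeq annotates each of these 3 on chromosome 17 and again on alternate scaffolds of the assembly. Of protein-coding genes annotated on scaffolds as well, 287 of 1115 (25.7%) had 0 counts in all libraries, against 323 of 20641 (1.56%) of those on a chromosome alone. Rpl10a, which is also annotated on a scaffold, had counts in every library, with 9.94 to 32.9 CPM. Rpl32l, with 64 counts over all libraries, and Rpl10l were below the filter without such copies. The 0 of Rps10 and Rps18 is a value of these counts, and its cause was not tested. The levels of both genes in the cells were not measured here.

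The ribosomal protein genes have many processed pseudogenes, and a fragment that aligns to a gene and to its pseudogene was not counted. Among the genes counted, 240 were pseudogenes named after a ribosomal protein, and 226 of them had a count. Their fragments came to 2.39 to 5.27% of the members' own in the vehicle libraries. In GW2580 1 to 5 this share was 12.7, 5.65, 5.03, 22.6 and 2.61%, and libraries 1 and 4 had the fewest fragments on members and the most on no exon. As CPM of assigned fragments without TMM factors, the pseudogenes summed to 186 to 385 with vehicle and to 299.6, 263, 146, 453 and 376 in GW2580 1 to 5, so in GW2580 1 they lay within the vehicle range and its high share came with few fragments on members. Fragments that aligned to more than 1 place made up 25.7, 26.1, 20.8, 17.8 and 15.6% of records in Vehicle 1 to 5 and 17.5, 19.1, 17.7, 15.1 and 20.4% in GW2580 1 to 5. The lowest values, in GW2580 4 and Vehicle 5, fell in libraries with low member levels, and its part in those levels was not tested.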

How the data were processed

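RNA of CD11b-selected microglia from 5 Vehicle and 5 GW2580 mice was sequenced as read pairs. The authors trimmed the reads, aligned them with STAR to GRCm38 and deposited, for each library, counts of uniquely aligned fragments on RefSeq exons, summed by gene and blind to strand, not normalized, with each gene's exon length (the header names featureCounts 1.6.3). The authors also deposited the counts of fragments assigned, ambiguous, on no exon or aligned to more than 1 place. Near-identical genes, overlapping genes and pseudogenes can lose or share fragments under this counting. Groups, sex and replicate numbers are those of the labels.

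Symbols came from the RefSeq table (46029 of 46152 genes). The 28419 genes with over 1 CPM in 3 or more libraries were scaled by TMM and tested with edgeR 4.0.16 (R 4.3.3), quasi-likelihood F test, treatment as the only term, with calls at over 2-fold and unadjusted p under 0.05, with Benjamini-Hochberg adjustment over all genes tested. Standard errors are the log2 fold change divided by the square root of F. For single genes an exact permutation test, two-sided, ran over 252 splits (numpy 2.4.6). CPM per kb used exon length on the chromosome. Gene lists were described by counts and medians, with no test of a list, and correlations across genes carry no p. The fit was tested on simulated counts. The smallest library has 12550418 assigned fragments, and counting error is large for genes near 1 CPM.

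Members named are the 5 called of smallest p (or, where 0 were called, the 3 most extreme), the 5 highest per kb of each subunit, the stalk, Rpsa, Rps6, Rpl5, Rpl11, Rps27a, the shortest and longest, paralogs with parent genes, the 3 most and 3 least like the members' mean, and those below the filter; of other lists, ribosomal genes outside the rule and the 2 highest genes of each. The members, lists, alternatives and libraries left out together were chosen with earlier results of these data known. Coding length and chromosome exon length were added after the files had been seen. The alternatives were DESeq2 1.42.0, limma-voom (limma 3.58.1), different scaling and filtering, sex, replicate number, the percentage on no exon, removal of the trend with length, other thresholds and leaving out libraries. Some genes are not reported here singly and stay in all counts and medians.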

Additional observations from a re-analysis of the deposited data

Results flagged for a closer look

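Values were flagged where 1 library of a group of 5 lay so far from the rest that its gap to the nearest other library, as a part of the group's range, passed Dixon's 95% limit of 0.71. Over 70 groups checked, 20 were flagged, 15 of them at GW2580 5. Members move together, so these are not separate events. Several of the genes checked were named from these same values, so the number flagged is not set against a chance rate.

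In GW2580 5 the share of assigned fragments on members (1.44%) was far above the other treated libraries. The same library stood far above them for the small subunit genes Rps29 (291 CPM), Rps25 (469 CPM), Rps14 (365 CPM), Rps27a (160 CPM), Rps27 (243 CPM), Rps27l (163 CPM), Rps21 (54.8 CPM), Rps15a (69.5 CPM) and Rps16 (88.9 CPM). For the large subunit it stood far above them in Rpl41 (327 CPM), Rplp1 (325 CPM), Rplp2 (360 CPM), Rpl39 (38.3 CPM) and Rpl32 (151 CPM). In Vehicle 5 the low values of Rpl15 (61.4 CPM), Rps3 (130 CPM), Rps9 (94.7 CPM) and Rps4x (62.5 CPM) were flagged, all members of 582 or more coding bases. In Vehicle 1 the high value of Rpl39l (2.31 CPM) was flagged, the 1 flag at that library.

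Rps21 was also flagged because its change with GW2580 differed between the sexes at an unadjusted p under 0.05 in edgeR (male minus female log2 fold change -3.51, SE 1.53), a difference that did not pass adjustment over all genes. GW2580 5, its highest library, came from a female mouse.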

How the results depend on the processing

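Against 6 members called lower, library size alone gave 1, the percentage on no exon as a covariate 0, an adjusted p under 0.05 0, DESeq2 11 and limma-voom 25. The replicate numbers did not pair the libraries (correlations of same-numbered libraries -0.39 to 0.13), and a replicate block gave 18 (5.27% of all genes). Leaving out 1 library gave 0 (without GW2580 1 or 4) to 64 (without GW2580 5, 13.2% of all genes). Without Vehicle 5 and GW2580 5 it was 67 (15.2% of all genes). No share over all genes is set beside the counts without GW2580 1 or 4, so they show no trait particular to the members. The median log2 fold change of members (-0.64) ran from -1.83 to -0.40 without 1 library and was -2.02 without both. The large minus small subunit difference (-0.09) ran from -0.13 to 0.10 and was 0.14 without both, and the correlation with exon length (-0.33) ran from -0.45 to 0.53 and was 0.54 without both. Without TMM factors the median gene rose by 0.23. The cause of these shifts was not tested.

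Fold changes near 0 turned. Rps29 (0.08) was -0.20 with the length trend removed, -1.16 by limma-voom, -0.14 with the percentage on no exon, -1.64 with the replicate block, -0.22 with sex and -2.26 without both libraries. Rps25 (0.01) was -0.0422 by DESeq2, -0.0423 by its size factors, -0.0414 with the percentage on no exon, -0.14 with the length trend removed, -0.99 by limma-voom, -0.0122 with no filter, -1.51 with the replicate block, -0.15 with sex and -2.19 without both. With library size alone Rplp2, Rpl39, Rps27 and Rps21 were at 0.0353, 0.0755, 0.0212 and 0.0129, and with the percentage on no exon Rpl3 and Rpl4 at 0.0501 and 0.0362. Leaving out 1 library moved Rps29 from -2.03 to 0.37, Rps25 from -1.92 to 0.33, Rplp2 from -2.09 to 0.13, Rpl39 from -1.85 to 0.17, Rps27 from -1.92 to 0.14, Rps27l from -2.14 to 0.00181 and Rps21 (-0.20) from -2.25 to 0.10. For the other members named with a fold change no alternative changed the sign.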
